A study of Homo sapiens with 9 samples.

Results

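Protein-coding genes that span at least 500 kb were examined in Chrom-seq libraries from HEK293T cells, an established human embryonic kidney line. Members were chosen by position and name: coding genes on chromosomes 1 to 22 with a listed length of at least 500 kb, leaving out names that begin with KCN or ZNF. This left 283 of the 57820 genes in the count table, or 283 of the 18834 coding genes that met the other criteria. No expression value entered the choice. All 9 libraries came from cells that co-expressed an APEX2 peroxidase fusion with a SunTag (GCN4) fusion for 48 hours, then received 500 μM biotin-aniline for 30 min and 1 mM H2O2 for 1 min. In the 3 CBX1 libraries the SunTag epitopes carried the chromodomain of CBX1, which binds the heterochromatin mark H3K9me3. In the 3 CBX1_W42A libraries the chromodomain had the change W42A, and in the 3 control libraries no reader was attached. The labels of all 9 libraries, the control included, also carry NLS, which they do not explain. The constructs were introduced by transient transfection, so expression can vary from cell to cell. Biotinylated, polyadenylated RNA was sequenced. Because no library of unlabeled input RNA was analysed here, a difference in capture and a difference in the amount of an RNA in the culture cannot be told apart, nor can more cells with an RNA and more RNA per cell.

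Genes of this size consist almost wholly of introns. Many encode adhesion molecules, receptors and scaffolds of the nervous system, and a number of them lie across common fragile sites, which are late-replicating regions prone to breakage under replication stress. Silent genes of this kind often lie in compact chromatin, and RNA from a transcribed one holds long stretches of intron until splicing is complete.

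The 283 genes spanned 501 to 2305 kb, with a median of 709 kb, and together covered 233 Mb of the hg19 genome. Among them, 55 spanned over 1 Mb. The listed length of each of the 57820 genes equaled its span, so reads in introns counted toward a gene, and exon and intron reads could not be separated. In a later annotation of the same build, exons made up a median of 1.41% of the span of 279 members, against 16.9% in shorter coding genes. The GC content of the spans had a median of 38.3%, against 45.9% in shorter coding genes, and was below that value in 265 of 283. Another gene on the same strand lay within 210 of the spans, and 22 members had less than 90% of their span to themselves. A second MDGA2 identifier, which lies within the first, had no counts in any library. The later annotation still gave 273 of these genes at least 500 kb. It gave much shorter spans to AVL9, EIF2B5, FIP1L1 and UPK3B, which were singled out after the annotations were compared.

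Total counts per library were between 8379542 and 11082852, and 243 members had a count in every library. Replicates of a group differed by more than counting noise, and the labels do not say that they were separate cultures, so p-values measure the spread between these libraries, which may be technical. The HEK293T markers VIM, KRT8, KRT18, NEFM, NEFL, LIN28B and PAX2 were detected in 9 of 9 libraries. The blood markers CD3E and HBB had no counts, PTPRC was at most 0.194 CPM and the liver marker ALB was 0.388 to 2.79 CPM. CPM here denotes normalized counts, scaled to a common library size with TMM factors over the 9 libraries.

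The long genes held a small share of all counts. The share was 0.574%, 0.577% and 0.599% in the control libraries. It was 0.652%, 0.595% and 0.619% with CBX1 and 0.565%, 0.621% and 0.567% with CBX1_W42A. One control library therefore lay above the lowest CBX1 library. Relative to the TMM-scaled library sizes the order of the means was different, with summed CPM of 6076 ± 51 (SD, n = 3) for control libraries, 6015 ± 294 (SD, n = 3) with CBX1 and 5812 ± 247 (SD, n = 3) with CBX1_W42A. The 55 genes over 1 Mb held 0.0719%, 0.0696% and 0.0784% of control counts, 0.0969%, 0.0827% and 0.0884% with CBX1, and 0.0779%, 0.0804% and 0.0769% with CBX1_W42A. For these longest genes all 3 CBX1 libraries were above the other 6 in share of counts. These shares are not scaled by the TMM factors, which were 1.03 to 1.04 with CBX1 and 0.942 to 0.988 in the control. Scaling would therefore bring the CBX1 and control values closer together.

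**Figure D1:**
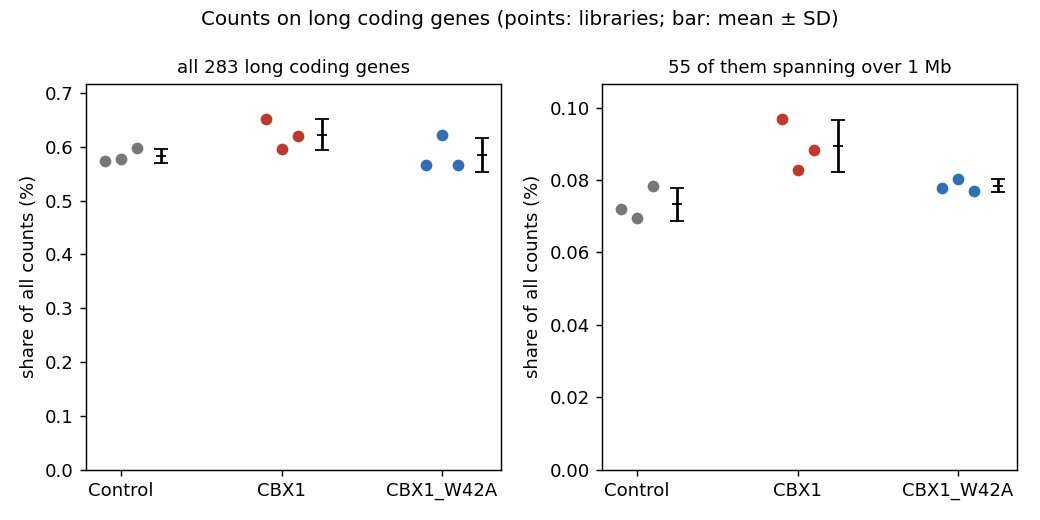
Share of all counts (%, vertical axes from 0) on the 283 long coding genes (left) and on the 55 of them over 1 Mb (right), with a point for each library and the mean ± SD of 3 libraries beside it. The groups overlap on the left, whereas the CBX1 libraries, at 0.0827% or more, lie above the others on the right. The shares are not scaled by TMM factors.

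Levels per length were uneven. The median member had 11.04 CPM per Mb of span, and the quartiles were at 1.497 and 38.5 CPM per Mb. FIP1L1, ERC1, ROBO1, PARD3 and TENM3 together took 13.8% of the counts on members. ERC1, which encodes a scaffold of the secretory active zone, had the highest level per length at 303 CPM per Mb. FIP1L1 encodes a polyadenylation factor and had the highest CPM, but its listed span of 918 kb on chromosome 4 runs into PDGFRA and is 86.8 kb in the later annotation, so it is a long gene by the table's annotation only. PARD3 (cell polarity), ROBO1 (an axon guidance receptor), TENM3 (a teneurin adhesion molecule) and LRBA (vesicle traffic) had 203, 128, 214 and 188 CPM per Mb. At the other end, 58 members were under 1 CPM per Mb.

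The first comparison, CBX1 against the control, addresses which RNAs were captured more with the H3K9me3 reader than without a reader. A call required an adjusted p under 0.05 in edgeR (quasi-likelihood, Benjamini-Hochberg adjusted over all genes tested) and a difference of 0.75 or more on the log2 scale. Of 246 members with enough counts to be tested, 14 were called higher with CBX1 (5.69%), while 7.06% of all 18837 genes tested and 4.58% of shorter coding genes were. The share of called members was thus within the range of these backgrounds. None was called lower, with 0.34% of all genes called lower. Without the adjustment, edgeR gave p under 0.05 for 58 members that were higher (23.6%) and 18 that were lower (7.32%), beside 18.2% and 16.1% of all genes, and DESeq2 called 13 higher and 0 lower. Without CBX1 replicate 1 there were 8 higher and 1 lower, and removing the trend of the fold change with abundance left 4 higher and 1 lower. The median log2 fold change of the 246 was 0.08, against 0.03 for all genes and −0.05 for shorter coding genes, and 155 of 246 were above 0. For 60 of the 283 members the lowest CBX1 library exceeded the highest control library, and for 28 the groups were separated the other way. The same count was not made over all genes, so it does not set the members apart from them.

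Within the long genes the values differed by span. The median log2 fold change was 0.06 in the 199 tested members of 500 to 1000 kb, of which 9 were called higher (4.52%), and 0.30 in the 47 over 1000 kb, of which 5 were (10.6%). Coding genes of 100 to 250 kb had a median of −0.06 and those of 250 to 500 kb a median of 0.04. Spearman's rho between span and log2 fold change over the 246 genes was 0.23, and rho between mean CPM and log2 fold change was −0.29. These are descriptions across genes, which share the same 6 libraries. The longer class also had fewer counts, with a median of 78.3 per library against 124.5, and the part of count level in the difference by span was not tested. At like counts the long genes lay on both sides of the shorter ones. Between 30 and 100 counts the median log2 fold change was 0.30 for 53 members and 0.13 for 1719 shorter genes, with 13.2% and 13.4% called higher. Between 10 and 30 counts the medians were 0.30 for 32 members and 0.43 for 1144 shorter genes, with 9.38% and 16.8% called higher.

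**Figure D2:**
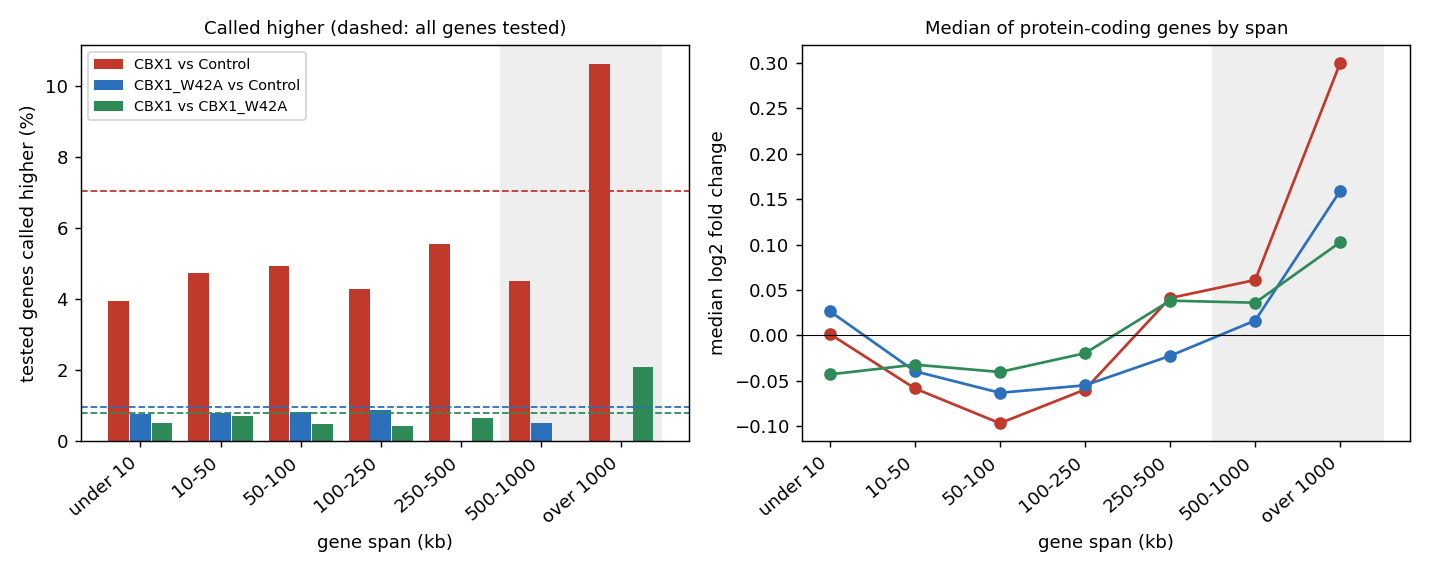
Percent of tested coding genes called higher (left, bars from 0, dashed lines for all genes tested) and median log2 fold change (right) by gene span in kb, for the 3 comparisons named in the key. The gray band marks the long genes: the class over 1000 kb has the highest CBX1-against-control values, 10.6% called and a median of 0.30, from 47 genes.

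The 14 genes called higher were NCAM2, RUNX1, MAPK10, CTNNA3, CADM2, ZBTB20, EYS, C10orf11, FAM19A2, ALK, LINGO2, NAALADL2, STPG2 and FSTL5. In all 14 the lowest CBX1 library exceeded the highest control library. The genes were called on these same libraries, so this separation follows largely from the choice and is a description only. They had low levels, with a median control mean of 2.31 CPM against 11.97 CPM in the tested members that were not called, and 5 of them spanned over 1 Mb. The GC content of their spans had a median of 36.1%, against 38.4% in the others tested. FAM19A2, ALK, LINGO2, STPG2 and FSTL5 are outside the rule for named genes and were added after their values were seen, to complete the set. In what follows each triplet gives replicates 1, 2 and 3, each log2 fold change is given ± its standard error, and adjusted p-values are from edgeR (quasi-likelihood, Benjamini-Hochberg adjusted).

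Among the adhesion genes, NCAM2 (chromosome 21, 22370633 to 22915650), which encodes a neural cell adhesion molecule of the immunoglobulin family, had 8.93, 10.2 and 9.91 CPM in the control and 18.9, 19.5 and 14.8 CPM with CBX1. Its log2 fold change was 0.90 ± 0.16 with an adjusted p of 0.0012. With CBX1_W42A it had 13.01, 13.3 and 10.2 CPM, below all CBX1 libraries. CADM2 (chromosome 3, 85008132 to 86123579), a synaptic cell adhesion molecule, had 3.59, 3.62 and 4.23 CPM in the control and 8.80, 8.20 and 6.29 CPM with CBX1, a log2 fold change of 1.04 ± 0.22 with an adjusted p of 0.00412. Its CBX1_W42A libraries, at 6.60, 8.64 and 6.03 CPM, overlapped those with CBX1. CTNNA3 (chromosome 10, 67672276 to 69455927), which encodes an alpha-catenin that links cadherins to actin, had 2.81, 2.38 and 2.42 CPM in the control and 8.80, 4.88 and 6.10 CPM with CBX1. The log2 fold change was 1.39 ± 0.27 with an adjusted p of 0.00241, and with CBX1_W42A it had 5.22, 3.90 and 3.18 CPM. CADM2, NCAM2 and CTNNA3 were called in each of 16 alternative fits of this comparison that kept the 0.75 limit on the fold as a cutoff.

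Among transcription factors, RUNX1 (chromosome 21, 36160098 to 37376965), a regulator of blood cell formation, had 10.2, 9.73 and 9.66 CPM in the control and 19.5, 16.6 and 14.8 CPM with CBX1. The log2 fold change was 0.80 ± 0.16 with an adjusted p of 0.00224. Without CBX1 replicate 1 it was 0.69, below the limit of 0.75. ZBTB20 (chromosome 3, 114056941 to 114866118), a zinc-finger repressor, had 6.70, 6.22 and 5.92 CPM in the control and 11.5, 10.9 and 10.1 CPM with CBX1, a log2 fold change of 0.80 ± 0.18 with an adjusted p of 0.0048. With CBX1_W42A, RUNX1 had 11.6, 14.1 and 14.0 CPM, below all CBX1 libraries. ZBTB20 had 8.34, 10.5 and 7.73 CPM with CBX1_W42A, above all control libraries and overlapping CBX1.

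In the signaling group, MAPK10 (chromosome 4, 86936276 to 87515284), the neuronal c-Jun N-terminal kinase, had 7.18, 8.15 and 7.25 CPM in the control and 13.9, 12.7 and 12.9 CPM with CBX1, a log2 fold change of 0.83 ± 0.16 with an adjusted p of 0.00241. Its CBX1_W42A libraries were spread, at 7.79, 13.1 and 8.26 CPM. ALK (chromosome 2, 29415640 to 30144432), a receptor tyrosine kinase of the developing nervous system, rested on few counts: 2, 1 and 0 control counts, then 14, 5 and 11 with CBX1 and 3, 4 and 0 with CBX1_W42A. The ratio of its summed counts, scaled by library size, was 9.68 with CBX1 against the control, with an exact 95% interval of 3.01 to 49.6 that covers counting error only. The adjusted p was 0.013, and it reached 0.0527 without CBX1 replicate 1. ALK passed the filter on low counts through the CBX1 libraries, where it is high. It was not tested with filterByExpr or with at least 10 counts in every library.

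EYS (chromosome 6, 64429876 to 66417118), a gene of photoreceptor cells that spans 1987 kb, was near 0 outside the CBX1 group. It had 0, 0 and 1 control counts, while the counts were 16, 5 and 6 with CBX1 and 2, 2 and 0 with CBX1_W42A. The scaled ratio of CBX1 to the control was 26.1, with an exact 95% interval of 4.31 to 1069.8, and the adjusted p was 0.00923. EYS passed the filter on low counts through the CBX1 libraries, and it was not tested with filterByExpr, with at least 10 counts in every library or without CBX1 replicate 1, which held 16 of its 27 CBX1 counts. The fits that did test it with the 0.75 cutoff called it. At 0.489 CPM per Mb with CBX1, it was still among the lowest members per length.

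The remaining called genes were also low. C10orf11 (chromosome 10, 77360998 to 78319925), a gene linked to pigment cells, had 1.26, 2.83 and 2.17 CPM in the control and 5.24, 4.66 and 4.36 CPM with CBX1, a log2 fold change of 1.22 ± 0.31 with an adjusted p of 0.0111. Its adjusted p was 0.0523 without control replicate 1. FAM19A2, which encodes a secreted chemokine-like protein, had 1.26, 2.83 and 1.57 CPM in the control and 3.23, 5.21 and 5.32 CPM with CBX1, with a log2 fold change of 1.31 and an adjusted p of 0.0123. Without control replicate 1 or without CBX1 replicate 3 it was not called, with an adjusted p of up to 0.0606. LINGO2, a leucine-rich repeat membrane protein, had 3.49, 4.53 and 3.50 CPM in the control and 7.91, 6.10 and 6.68 CPM with CBX1, with a log2 fold change of 0.86 and an adjusted p of 0.0136, or 0.0609 without CBX1 replicate 1.

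NAALADL2, STPG2 and FSTL5 had the weakest calls. NAALADL2 (chromosome 3, 174156363 to 175523428) had 0.388, 0.792 and 0.604 CPM in control libraries, 1.89, 2.55 and 1.16 CPM with CBX1 and 1.83, 1.79 and 0.953 CPM with CBX1_W42A. Its log2 fold change was 1.66 ± 0.50 with an adjusted p of 0.0278, and leaving out 1 library kept the call in 2 of 6 cases, with an adjusted p of up to 0.114. It was not called without control replicate 1 or 3, or without CBX1 replicate 1 or 2. STPG2 had 0.388, 0 and 1.09 CPM in the control and 1.78, 2.22 and 1.65 CPM with CBX1, with a log2 fold change of 1.96 and an adjusted p of 0.0359. Other genes on its strand take up part of its span, of which 68.7% is its own, and it kept its call only without control replicate 3, with an adjusted p of up to 0.0938 otherwise. The log2 fold change was 3.13 without that library and 1.39 without control replicate 2. FSTL5, which encodes a follistatin-like protein, had 1.07, 1.36 and 0.966 CPM in the control and 2.01, 2.22 and 3.10 CPM with CBX1, with a log2 fold change of 1.13 and an adjusted p of 0.0468. It was called in 0 of 6 fits that left out 1 library, with an adjusted p of up to 0.186, and DESeq2 did not call it.

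For all 14 genes the mean with CBX1_W42A lay between the control mean and the CBX1 mean. The genes were chosen for the distance between these means, and the comparisons share libraries, so this order is given as a description. Side by side, the log2 fold changes of CBX1_W42A against the control were 0.33 for NCAM2, 0.41 for RUNX1, 0.36 for MAPK10, 0.68 for CTNNA3, 0.89 for CADM2 and 0.49 for ZBTB20. They were 0.53 for C10orf11, 0.84 for FAM19A2, 0.34 for LINGO2, 1.36 for NAALADL2, 0.79 for STPG2 and 0.47 for FSTL5. EYS and ALK had too few counts to be tested there. None of the other 12 was called against the control, with the smallest adjusted p, 0.0549, for CADM2 in edgeR (quasi-likelihood, Benjamini-Hochberg adjusted), and CADM2 was called when all 9 libraries were fitted together. Between CBX1 and CBX1_W42A none of the 14 was called. By edgeR (quasi-likelihood, Benjamini-Hochberg adjusted), NCAM2 was 0.54 ± 0.17 higher on the log2 scale with CBX1 than with CBX1_W42A at an adjusted p of 0.0865.

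**Figure D3:**
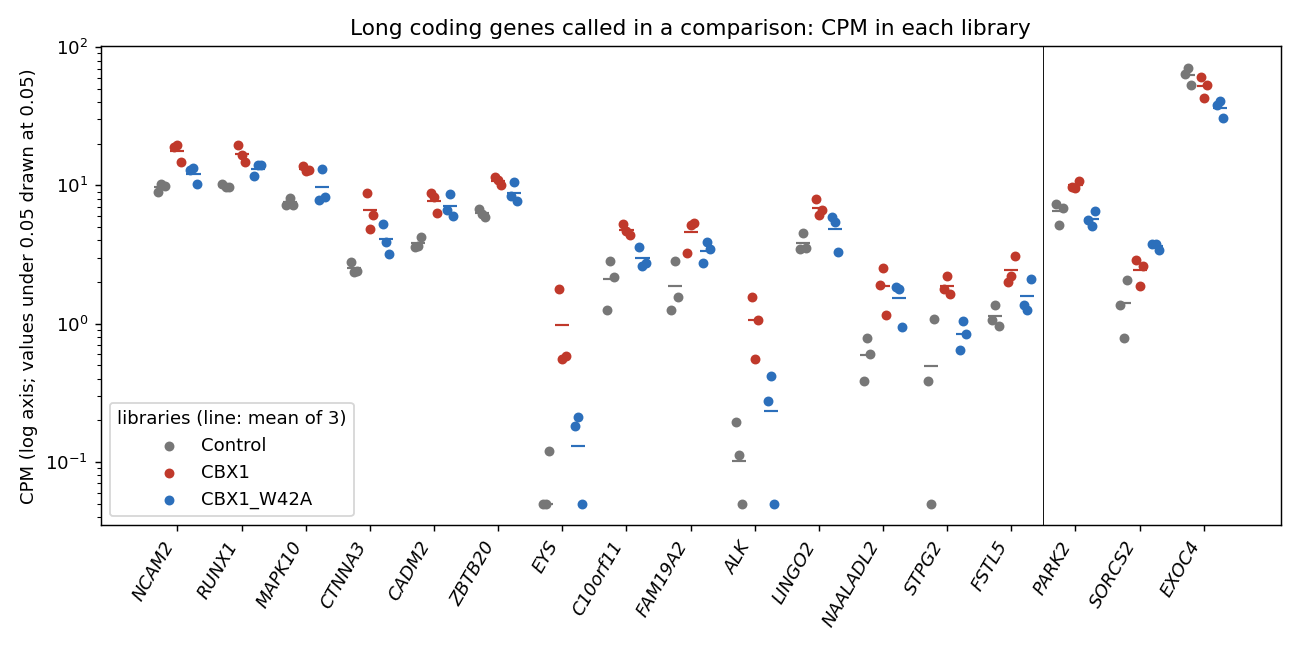
CPM (log axis, values under 0.05 drawn at 0.05) in each of the 9 libraries for the 14 long genes called higher with CBX1 than in the control, and, right of the line, for PARK2, SORCS2 and EXOC4, called in other comparisons; short lines are means of 3. For the 14, which were called on these libraries, the CBX1 points lie above all control points, with EYS and ALK lowest.

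A further set of members passed the adjusted p but not the limit on the fold, so that in total 32 members (13.01%) were above the control and 7 (2.85%) below at an adjusted p under 0.05, beside 10.6% and 9.46% of all genes tested. FIP1L1 was the farthest below, at 280, 295 and 261 CPM in the control and 186, 192 and 197 CPM with CBX1, with no overlap. Its log2 fold change was −0.52 ± 0.09 with an adjusted p of 0.000942 by edgeR (quasi-likelihood, Benjamini-Hochberg adjusted). LRBA had 173, 171 and 164 CPM in the control and 138, 119 and 137 CPM with CBX1, a log2 fold change of −0.35. The other highly counted genes differed by less. ERC1 had a log2 fold change of −0.01 ± 0.10, ROBO1 of 0.00 ± 0.12, TENM3 of −0.14 ± 0.10 and PARD3 of −0.25 ± 0.09, none with an adjusted p under 0.05.

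The second comparison, CBX1_W42A against the control, addresses what the mutated chromodomain captured. Of 241 members tested, 1 was called higher (0.415%) and 1 lower (0.415%), against 0.974% and 0.0214% of all 18680 genes tested. DESeq2 also called 1 in each direction. The median log2 fold change was 0.03 and 129 of 241 were above 0. SORCS2 (chromosome 4, 7194265 to 7744554), a sorting receptor for neurotrophin precursors, had 1.36, 0.792 and 2.05 CPM in the control, 3.76, 3.79 and 3.39 CPM with CBX1_W42A, and 2.90, 1.88 and 2.61 CPM with CBX1. Its log2 fold change was 1.37 ± 0.36 with an adjusted p of 0.0469 by edgeR (quasi-likelihood, Benjamini-Hochberg adjusted). The call was kept only without control replicate 3, and leaving out any other library gave an adjusted p between 0.0997 and 0.142. EXOC4 (chromosome 7, 132937829 to 133751342), a subunit of the exocyst that tethers secretory vesicles, had 63.7, 71.0 and 53.3 CPM in the control, 38.3, 40.9 and 30.6 CPM with CBX1_W42A, and 60.7, 42.6 and 53.0 CPM with CBX1. All CBX1_W42A libraries were below the other 6. Its log2 fold change was −0.78 ± 0.13 with an adjusted p of 0.00679 in the same test, and it was −0.68 without control replicate 2 and −0.67 without CBX1_W42A replicate 3, short of the limit.

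The third comparison, CBX1 against CBX1_W42A, sets the reader beside its mutated form. The labels do not say whether the CBX1_W42A libraries were prepared together with the others. In this comparison and the second, an effect of the construct and a difference in preparation therefore cannot be told apart. Of 248 members, 1 was called higher with CBX1 (0.403%) and 0 lower, against 0.795% and 0.201% of all 19360 genes tested. At an unadjusted p under 0.05, edgeR gave 29 higher (11.7%) and 6 lower (2.42%), beside 8.23% and 8.4% of all genes, and DESeq2 called 1 higher and 0 lower. The median log2 fold change was 0.05, with 154 of 248 above 0. The gene called was PARK2 (chromosome 6, 161768452 to 163148803), which encodes the ubiquitin ligase parkin. It had 9.81, 9.64 and 10.7 CPM with CBX1, 5.59, 5.06 and 6.56 CPM with CBX1_W42A, and 7.38, 5.21 and 6.89 CPM in the control, so all CBX1 libraries were above the other 6. The log2 fold change against CBX1_W42A was 0.81 ± 0.20 with an adjusted p of 0.0321 by edgeR (quasi-likelihood, Benjamini-Hochberg adjusted). The call was kept only without CBX1_W42A replicate 3, and leaving out any other library gave an adjusted p between 0.0544 and 0.141. Against the control its log2 fold change was 0.65 ± 0.19.

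**Figure D4:**
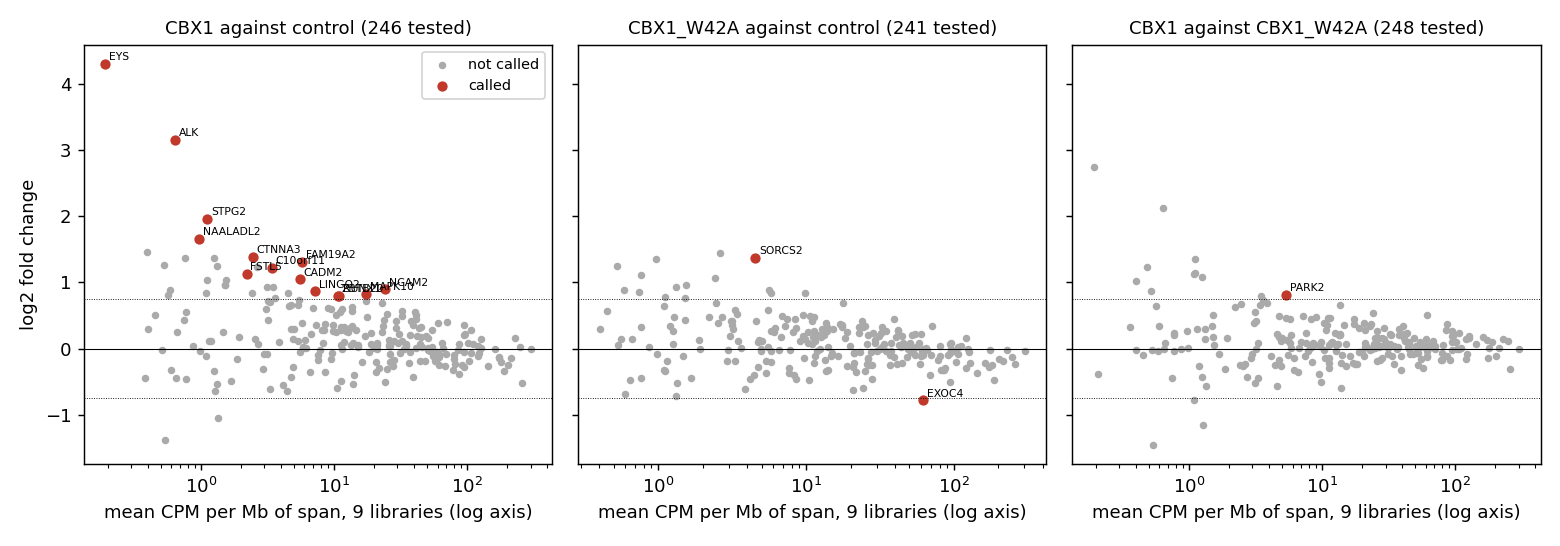
Log2 fold change (vertical) against mean CPM per Mb of span over 9 libraries (log axis) for every tested long gene in the 3 comparisons, with called genes in red and named, and dotted lines at 0.75 in either direction. In the left panel most of the 14 called genes are among the less abundant ones, with NCAM2 and MAPK10 above the median member. The middle and right panels have 2 and 1 called genes.

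Genes at common fragile sites were followed as a group. Of the 16 among the members 15 were tested, and in CBX1 against the control 2 were called higher (13.3%, beside 7.06% of all genes tested), CTNNA3 and NAALADL2. The median log2 fold change was 0.32 and 13 of 15 were above 0, beside a median of 0.08 for all long genes tested and 0.03 for all genes. Without the adjustment, 8 of the 15 had p under 0.05 in edgeR's test, all in the direction of CBX1 (53.3%, beside 18.2% of all genes in that direction). No test was made of the group as a whole. Among the 14 described here, levels per length over the 9 libraries ran from 54.2 CPM per Mb for WWOX to 0.972 for NAALADL2.

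The tumor suppressor gene FHIT, at the most studied of these sites, had 20.7, 26.03 and 34.3 CPM in control libraries, 47.1, 39.2 and 41.7 CPM with CBX1 and 33.0, 35.1 and 33.1 CPM with CBX1_W42A. All CBX1 libraries were above the rest. Its log2 fold change of 0.69 ± 0.15 had an adjusted p of 0.0046 by edgeR (quasi-likelihood, Benjamini-Hochberg adjusted) but was under the limit of 0.75. DLG2, a synaptic scaffold, had 5.82, 8.26 and 11.96 CPM in the control and 15.6, 13.9 and 12.97 CPM with CBX1, a log2 fold change of 0.74 ± 0.21. RAD51B, a recombination gene, had 28.6, 31.3 and 31.5 CPM in the control and 42.8, 39.2 and 37.9 CPM with CBX1, a log2 fold change of 0.41 ± 0.11. WWOX, an oxidoreductase gene, had 58.9, 63.9 and 61.9 CPM in the control and 63.2, 61.4 and 61.1 CPM with CBX1, and the groups overlapped. Further log2 fold changes in the group were 0.65 for PARK2, 0.50 for IMMP2L (a mitochondrial peptidase), 0.32 for LARGE (a glycosyltransferase for dystroglycan), 0.27 for MACROD2 (an ADP-ribose hydrolase) and 0.22 for LRP1B (a receptor of the lipoprotein receptor family). They were 0.17 for NBEA (neurobeachin, in vesicle traffic), −0.05 for DAB1 (the adaptor of reelin signaling) and −0.18 for CNTNAP2. In CBX1_W42A against the control the median of the group was 0.15 on the log2 scale with none called, 3 higher and 0 lower at an unadjusted p under 0.05 in edgeR (all genes 9.66% and 9.61%) and 0 called by DESeq2. In CBX1 against CBX1_W42A the median was 0.10 with PARK2 called.

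**Figure D5:**
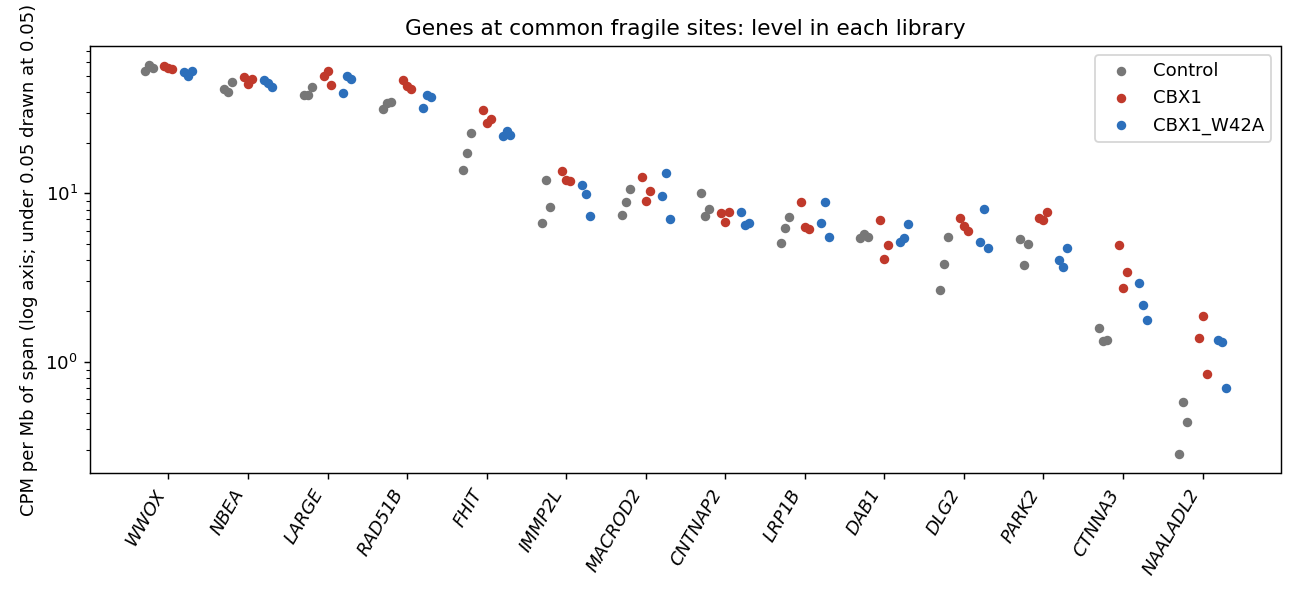
Level in CPM per Mb of span (log axis, values under 0.05 drawn at 0.05) in each of the 9 libraries for 14 long genes at common fragile sites, ordered by level. CBX1 points lie above all control points for FHIT, DLG2, RAD51B, LARGE, PARK2, CTNNA3 and NAALADL2, and overlap them for WWOX, NBEA, IMMP2L, MACROD2, CNTNAP2, LRP1B and DAB1.

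The other functional groups had 0 to 3 genes called higher in CBX1 against the control, to be read beside the 7.06% of all genes. Of 46 tested genes of cell adhesion and axon guidance 3 were called higher (6.52%, close to that share), with a median log2 fold change of 0.25. Of 19 transcription and RNA-binding factors 2 were called (10.5%), with a median of 0.07. AUTS2, a neurodevelopmental regulator, had 70.3, 61.3 and 81.7 CPM in the control and 88.0, 89.1 and 101 CPM with CBX1, a log2 fold change of 0.41 ± 0.11. Of 28 signaling enzymes and adaptors 2 were called (7.14%), with a median of 0.03. There, SPOCK1, a secreted proteoglycan, had 9.71, 8.83 and 6.64 CPM in the control and 14.9, 13.1 and 12.9 CPM with CBX1, a log2 fold change of 0.71 ± 0.17, and FRMD4A, a polarity adaptor, had a log2 fold change of 0.44 ± 0.11.

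None of 20 neurotransmitter receptors, channels and synaptic scaffolds was called by edgeR or DESeq2. Their median log2 fold change was 0.12, and 4 were higher (20%) and 0 lower at an unadjusted p under 0.05 in edgeR. Over all genes tested these shares were 18.2% and 16.1%, so the share of higher genes was near that of all genes. SYN3, a synaptic vesicle protein, had 11.2, 11.4 and 10.8 CPM in the control and 14.6, 14.7 and 17.9 CPM with CBX1, without overlap, and MAGI2, a scaffold, had 7.96, 7.24 and 7.61 CPM against 12.6, 8.87 and 12.9 CPM. Their log2 fold changes were 0.53 ± 0.15 and 0.61 ± 0.19. None of 27 genes of membrane traffic, cytoskeleton and metabolism was called by edgeR or DESeq2. Their median was 0.00, with 4 higher (14.8%) and 3 lower at an unadjusted p under 0.05 in edgeR, beside the same 18.2% and 16.1% of all genes. They were the most abundant group at a median of 51.0 CPM per Mb. In CBX1_W42A against the control, EXOC4 of this last group was the only listed gene called. The lists held 163 of the 283 members, and 6 of the 14 called genes were on none.

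The quietest long genes, the 71 with a mean of 1.48 CPM per Mb or less over all 9 libraries, show the level on long genes with little RNA. They covered 64.6 Mb. Their summed level was 0.410, 0.454 and 0.397 CPM per Mb for control libraries, 0.673, 0.572 and 0.514 with CBX1, and 0.430, 0.522 and 0.443 with CBX1_W42A. The CBX1 and control libraries did not overlap, while CBX1 and CBX1_W42A did. Of these 71 genes 34 were tested in CBX1 against the control, and EYS, ALK, NAALADL2 and STPG2 were called (11.8%). The share was 7.06% over all genes tested and, at 3 to 10 and 10 to 30 counts, 8.19% and 16.8% in shorter coding genes. Genes this low can pass the filter on low counts through the group where they are high. EYS had 1 control count and ALK had 3, so the share called among those tested depends in part on the filter. For scale, 324 olfactory receptor genes, which kidney cells should lack, had 1.79 ± 1.56 CPM per Mb (SD, n = 3) in control libraries, 3.94 ± 1.36 with CBX1 and 3.52 ± 0.26 with CBX1_W42A. These short genes consist largely of exon, so their levels per length are not those of introns.

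The 5 longest members are neural genes. CNTNAP2, a neurexin-like adhesion protein, had 23, 16.9 and 18.7 CPM in control libraries, 17.7, 15.6 and 17.8 CPM with CBX1 and 17.9, 15.0 and 15.5 CPM with CBX1_W42A. PTPRD, a receptor phosphatase, had 13.1, 11.8 and 15.6 CPM in the control and 16.0, 11.9 and 12.1 CPM with CBX1, and LSAMP, a limbic adhesion protein, had 10.8, 9.39 and 9.91 CPM in the control and 12.7, 9.75 and 14.0 CPM with CBX1. The control and CBX1 libraries overlapped in these genes, unlike in DLG2. CSMD1, a complement regulator, had at most 0.423 CPM in any library and was not tested. Near the 500 kb limit, PPFIA2, SPOCK3 and AKAP6 lay just inside, at 501, 501 and 502 kb, with control means of 2.81, 4.84 and 5.17 CPM and CBX1 means of 1.77, 7.26 and 4.01 CPM. DIAPH3, CACNA2D1 and MBD5 lay just outside, at 498, 497 and 497 kb, with control means of 154, 23.1 and 20.6 CPM and CBX1 means of 152, 20.1 and 25.3 CPM.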

How the data were processed

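Counts per gene in 9 Chrom-seq libraries, 3 per group, were used. Per the study's methods, trimming used fastp (version 0.23.1), alignment to hg19 used HISAT2 (version 2.1.0) and counting used featureCounts (version 2.0.1) with a GENCODE annotation, and the authors deposited whole-number counts without normalization for 57820 genes. The strand and overlap settings of the counting are not given in the sources used here. The deposited table also holds gene length, used here to choose members.

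Groups came from the sample labels. Each comparison took the 6 libraries of 2 groups, genes with counts summing to more than 18, TMM factors and the quasi-likelihood test of edgeR (version 4.0.16, in R version 4.3.3) with Benjamini-Hochberg adjustment over all genes tested, after the thresholds of the study's methods. CPM used TMM factors over all 9 libraries. The script was tested on simulated data. Python (version 3.11.15) with pandas (version 2.3.3) and matplotlib (version 3.10.9) summarized and drew the values. GC content and exon share came from GRCh37 and a later GENCODE annotation lifted to it.

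Named genes were the 8 called higher with CBX1 at the smallest adjusted p with separated libraries, the 3 best per direction in the other comparisons, the 6 most counted, the 5 longest, the fragile-site genes, the 3 with the smallest p on each other list, and 3 on each side of 500 kb. Members, lists and tests were chosen with earlier results of these data known. Alternatives were DESeq2 (version 1.42.0), other scalings and filters, all 9 libraries together, a replicate block, other fold limits, removal of the abundance trend, each library left out, and other length limits. Total counts were between 8379542 and 11082852 per library, which leaves genes under a few counts per library imprecise. Raw reads and input RNA were not analysed here, and 3 genes covered by these rules are not reported here.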

Additional observations from a re-analysis of the deposited data

How the results depend on the processing

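With CBX1 against the control, the number of long genes called higher was 14 in the main fit and 13 with DESeq2. It was 14 with RLE factors, filterByExpr or all 9 libraries in one fit, and 17 without a filter. It was 13 with at least 10 counts in every library, 21 with upper-quartile factors and 20 with library size alone. The genes were not always the same. Of the 14, filterByExpr kept 12 and at least 10 counts in every library kept 9. The replicate block kept 11, and the fit without CBX1 replicate 1 kept 7. A log2 limit of 1 left 9, and testing against log2 0.75 left 0. Removing the trend with abundance left 4 higher (NCAM2, CTNNA3, CADM2 and EYS) and gave 1 lower, SORCS1, which is outside the rule for named genes. A span of at least 250 kb gave 47 higher and 3 lower, and one of at least 1 Mb gave 5 higher. Leaving out 1 library gave 8 to 16 higher and 0 to 1 lower, with the 8 higher and 1 lower without CBX1 replicate 1. The median log2 fold change of 0.08 was 0.16 with upper-quartile factors, 0.17 with library size alone and 0.056 to 0.126 with 1 library left out. Over all genes tested, the 1330 called higher became 1060 with DESeq2 and 1558 with upper-quartile factors or library size alone. They became 170 in the test against log2 0.75 and 636 without the abundance trend.

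With CBX1_W42A against the control, the 1 higher and 1 lower became 2 and 0 with upper-quartile factors or library size alone. There were 3 higher without a filter, 2 higher with all 9 libraries, and 0 and 0 with at least 10 counts in every library, in the test against log2 0.75 or without the abundance trend. A log2 limit of 1 gave 0 lower. Leaving out 1 library gave 0 to 1 higher and 0 to 2 lower. The median of 0.03 was 0.12 with upper-quartile factors, 0.11 with library size alone, 0.0085 without CBX1_W42A replicate 2 and 0.062 without CBX1_W42A replicate 3. Over all genes tested, the 182 higher and 4 lower became 249 and 0 with upper-quartile factors. In the test against log2 0.75 they became 1 and 0, and without the abundance trend 52 and 3. With CBX1 against CBX1_W42A, the 1 higher became 0 in the test against log2 0.75 or at a log2 limit of 1, and 0 to 1 with 1 library left out, and the median of 0.05 was 0.033 without CBX1 replicate 1 and 0.104 without CBX1_W42A replicate 2.

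Whether the replicate numbers pair the samples is not settled. Over 14305 genes, deviations of same-number libraries had correlations of −0.19, −0.22 and 0.04 for CBX1 and the control. They were −0.11, 0.14 and 0.13 for CBX1_W42A and the control, and 0.17, 0.08 and 0.12 for CBX1 and CBX1_W42A. Deviations from the mean of so few libraries are tied to each other, so these values cannot decide it. The replicate block gave 12 higher in place of 14 with CBX1, 1 and 1 with CBX1_W42A, and 2 in place of 1 between them, adding EYS. Over all genes, the block gave 250 higher and 66 lower between CBX1 and CBX1_W42A, in place of 154 and 39.

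The mean share of counts on long genes was 0.583%, 0.622% and 0.584% in the control, CBX1 and CBX1_W42A. Of coding counts alone it was 0.653%, 0.715% and 0.666%, and without the 5 highest members it was 0.497%, 0.543% and 0.504%. With 1 library left out these means were 0.575% to 0.588%, 0.607% to 0.636% and 0.566% to 0.594%, so the order of the control and CBX1_W42A turned. No median log2 fold change and no called gene changed sign in these alternatives. Members with at least 90% of their span free (13 higher), and those still over 500 kb in the later annotation (14 higher), were tried after the data were seen. Except where a setting itself removes genes or samples, the cause of a change was not tested. EYS, ALK and other genes at a few counts per library are limited by depth.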
